A study of Mus musculus with 2 samples.

Results

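The 6 genes described here across the cell types of mouse alveolar bone are Il4, Il13 and Il10, which encode the secreted proteins interleukin 4, interleukin 13 and interleukin 10, and Il4ra, Il13ra1 and Il10ra, which encode chains of their receptors. They were taken by symbol from the feature lists of the deposited count files, and all 6 were found among 56419 gene symbols. All 6 belong to the 13819 genes that reached 20 unique molecular identifiers (UMIs, each standing for 1 captured transcript) in some cell class in each of the 2 libraries. Il13 reached that number in library 1 through its 21 UMIs in T cell-like cells, since the basophil-like cells of that library held 16.

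The study followed orthodontic tooth movement in healthy C57BL/6J mice aged 6 to 8 weeks. In the force group a nickel-titanium coil spring pulled the upper right first molar forward at a constant 25 g, and in the control group the spring was attached but exerted no force, so that both groups carried the appliance. On day 7 the molar was extracted and the alveolar bone within 1 mm of its socket was taken, pooled from 6 mice in each group, digested for 60 min and freed of red cells by lysis before single-cell RNA sequencing. The labels do not say which library came from which group, so the libraries are called library 1 and library 2, no group was compared, and no test was possible with 1 library per possible group.

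Interleukin 4 and interleukin 13 are the central cytokines of type 2 immunity. Interleukin 4 binds a receptor of the interleukin 4 receptor alpha chain (Il4ra) with the common gamma chain (Il2rg), and both cytokines bind a second receptor that joins Il4ra with Il13ra1; both receptors act through Janus kinases and the transcription factor STAT6. Interleukin 10 restrains inflammation through a receptor of Il10ra with the widely used chain Il10rb, which acts through STAT3. In bone, interleukin 4 and interleukin 13 are known to restrain osteoclast formation, and interleukin 10 to limit inflammatory bone loss.

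Library 1 held 9401 cells and library 2 held 11846, with a median of 3244 and 4363.5 UMIs per cell. The libraries shared 70 cell barcodes, where the product of their shares of all possible barcodes gives 62.9. Clusters were named from fixed marker lists, and 23 classes with at least 20 cells in each library were ranked, 21 of them named and 2 unnamed. Osteoblast-like, osteoclast-like and fibroblast or periodontal ligament cell-like classes were among them, beside many cells of the marrow. Levels are CPM, the UMIs of a gene scaled to the total UMIs of all cells of a class in a library, and the intervals in brackets are exact 95% Poisson intervals for levels and exact 95% Clopper-Pearson intervals for shares of cells. Both cover counting error only, and cells of 1 library are not replicates.

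For 5 of the 6 genes the libraries shared 1 highest class, which was the case for 53.9% of all measured genes. Basophil-like cells led for Il4 and Il13, and macrophage-like cells for Il10, T cell-like cells for Il4ra and plasmacytoid dendritic cell-like cells for Il10ra. The exception was Il13ra1, which was highest in pericyte or smooth muscle cell-like cells in library 1 and in endothelial cell-like cells in library 2. The 3 ligands, Il4, Il13 and Il10, were also at least 2-fold above every other ranked class in both libraries, which held for 11.7% of all measured genes. None of the 3 receptor genes reached that margin.

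**Figure D1:**
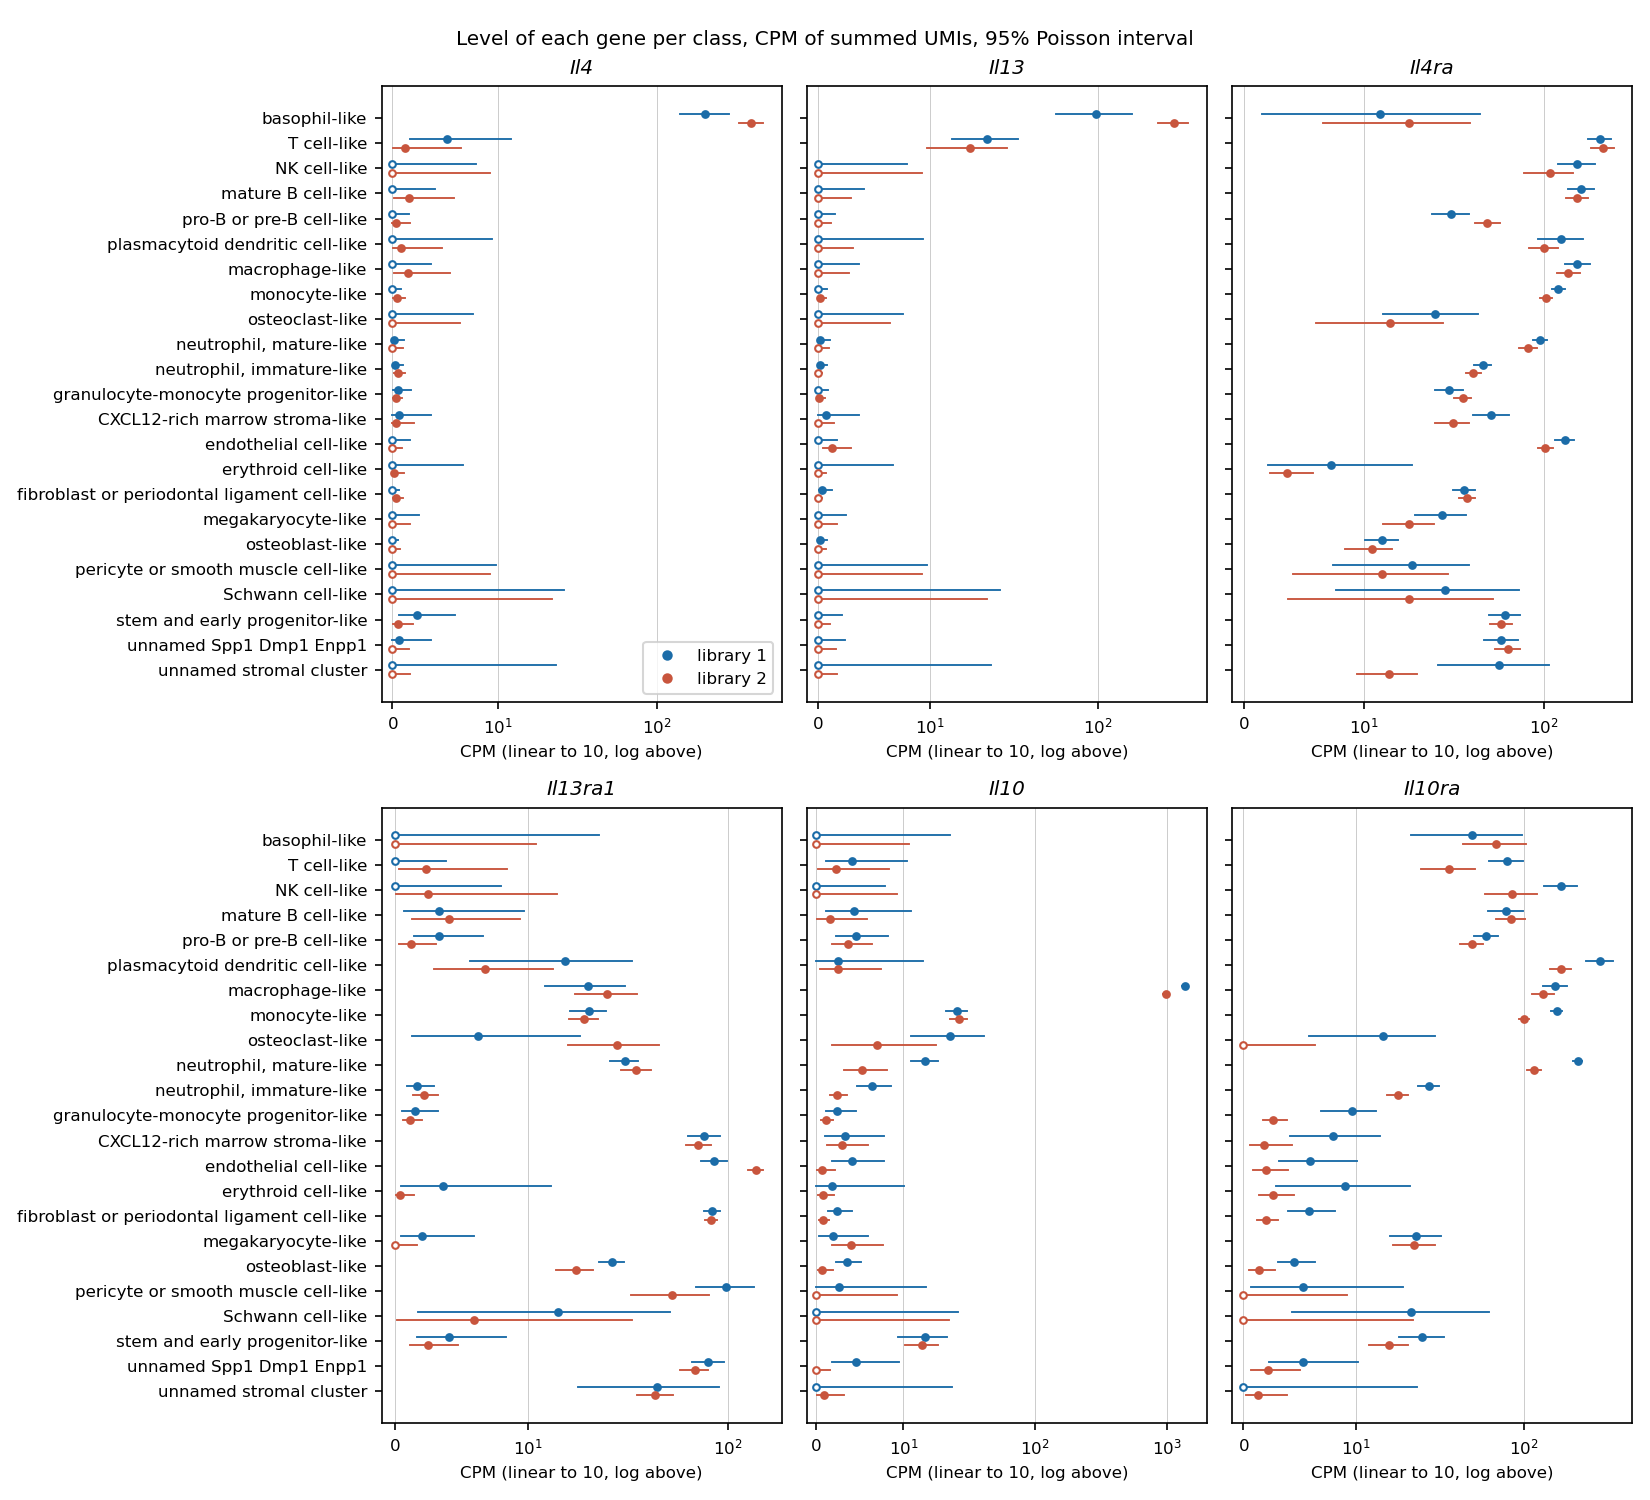
Level of Il4, Il13, Il4ra, Il13ra1, Il10 and Il10ra (CPM, linear to 10 and logarithmic above) in each of 23 classes, with library 1 in blue and library 2 in red. Points are the level of the summed UMIs, open points are classes without a UMI, and bars are 95% Poisson intervals; the 3 ligand genes stand out in 1 class each, and the 3 receptor genes spread over many.

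Il4 lay mainly in basophil-like cells, a small class. These 31 cells in library 1 and 58 in library 2 carried all 8 basophil markers, among them the proteases Mcpt8 and Prss34. In library 1 they held 33 of the 49 Il4 UMIs, or 67.3%, at 203 CPM [140 to 285]. In library 2 they held 132 of 159, or 83.0%, at 394 CPM [330 to 467]. The intervals of the libraries did not overlap, and since neither library is tied to a group, this difference has no replicate check.

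Outside the basophil-like class no level of Il4 passed a few CPM. T cell-like cells had 5.20 CPM from 5 UMIs in library 1 and 1.16 CPM from 1 UMI in library 2, and mature B cell-like cells had 0 and 2 UMIs. Il4 had no UMI at all in 15 of 23 classes in library 1 and in 10 in library 2, and endothelial, osteoblast-like, osteoclast-like, megakaryocyte-like, NK cell-like, Schwann cell-like and pericyte or smooth muscle cell-like cells were without one in both. In free RNA, read from barcodes with 10 to 100 UMIs, Il4 stood at 1.74 and 2.12 CPM, and free RNA was estimated at 2.95% and 3.16% of the UMIs of basophil-like cells.

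An Il4 UMI was found in 45.2% of basophil-like cells in library 1 [27.3 to 64.0] and in 60.3% in library 2 [46.6 to 73.0]. In immature neutrophil-like cells, which had similar depth (median 4361.5 and 5883.5 UMIs, against 4027 and 4338.5 in basophil-like cells), the shares were 0.158% and 0.221%. After each cell was thinned to 1000 UMIs, the basophil-like shares were 13.8% and 29.3%. Positive cells carried a median of 2 Il4 UMIs in both libraries, and the highest cell carried 5 in library 1 and 25 in library 2.

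Il13, whose protein acts on airway, gut and vessel cells as well as on macrophages, was highest in the same cells. Basophil-like cells had 98.3 CPM [56.2 to 160] from 16 UMIs in library 1 and 284 CPM [229 to 347] from 95 UMIs in library 2. An Il13 UMI was present in 22.6% and 43.1% of them. Unlike Il4, Il13 had a clear second class, T cell-like cells, with 21.8 CPM [13.5 to 33.4] in library 1 and 17.4 CPM [9.75 to 28.7] in library 2. The ratio of basophil-like to T cell-like cells was 4.50 in library 1 and 16.3 in library 2. No other class held more than 5 Il13 UMIs in either library.

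Across the 23 classes the levels of Il4 and Il13 followed each other, with a Pearson r of log2(CPM + 10) of 0.94 in library 1 and 0.96 in library 2; the points of a library share its depth and free RNA, and most lie near 0. Within the basophil-like class the pattern was looser. Il4 and Il13 UMIs occurred together in 3 of 31 cells in library 1 (9.68%) and in 15 of 58 in library 2 (25.9%), where the product of the single shares gives 10.2% and 26.0%. Many cells thus carried one transcript without the other, at the few UMIs per cell that were captured.

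**Figure D2:**
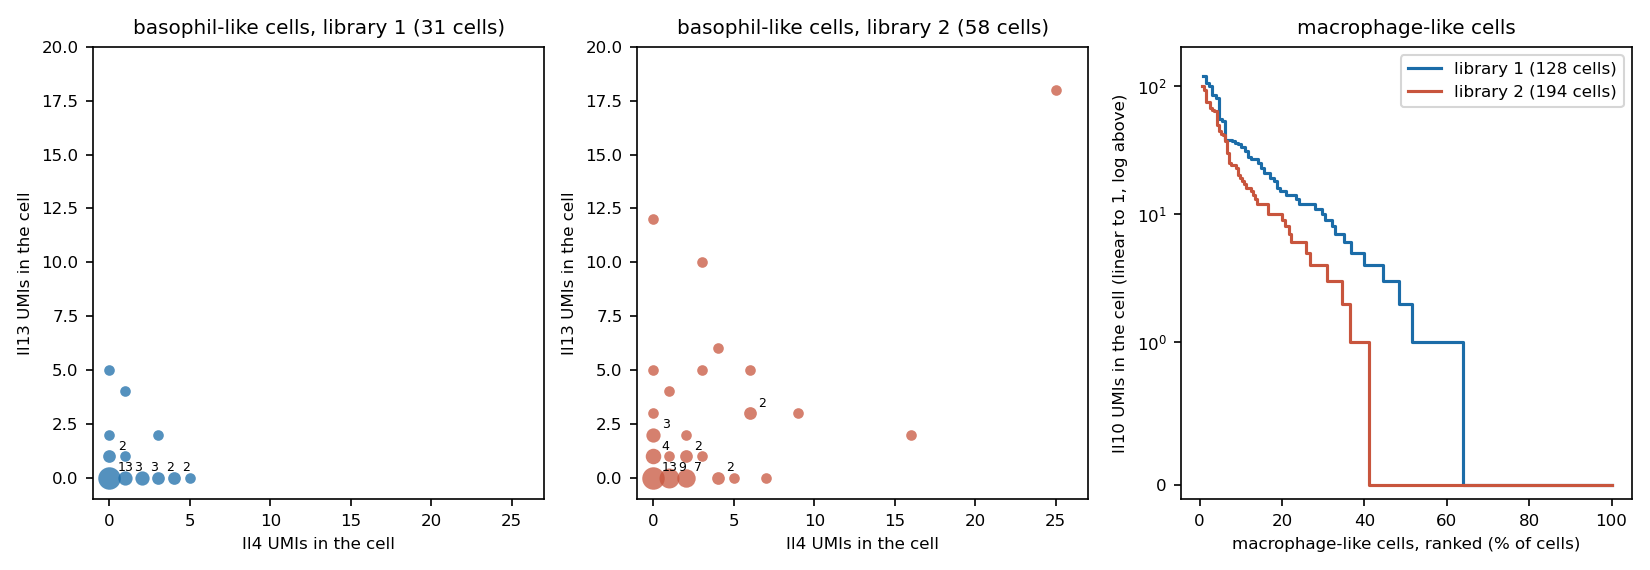
Left and middle, Il4 against Il13 UMIs in each basophil-like cell of library 1 (31 cells) and library 2 (58 cells), with dots sized and numbered by the cells they stand for; right, Il10 UMIs in macrophage-like cells ranked from high to low (linear to 1, logarithmic above). The highest basophil-like cell in library 2 carried 25 Il4 and 18 Il13 UMIs, and the highest macrophage-like cells carried 119 and 100 Il10 UMIs.

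Il4 and Il13 are neighbours on mouse chromosome 11, both on the minus strand, with 12657 bases between them. The 250 bases before each start site, from RefSeq on build GRCm38.p6, are shown because these genes followed each other across classes. The Il4 window is chr11:53618666-53618915 and the Il13 window is chr11:53634703-53634952, each printed 5′ to 3′ on the minus strand. Capitals mark GGAAA or its reverse complement TTTCC, the core letters bound by NFAT factors, which are known to switch on both genes when basophils and T cells are activated.
Il4 promoter: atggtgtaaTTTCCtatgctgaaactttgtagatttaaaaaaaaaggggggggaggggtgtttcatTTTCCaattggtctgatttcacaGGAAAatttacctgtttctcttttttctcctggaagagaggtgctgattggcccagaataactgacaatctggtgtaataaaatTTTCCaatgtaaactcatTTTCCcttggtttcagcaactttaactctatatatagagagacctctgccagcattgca
Il13 promoter: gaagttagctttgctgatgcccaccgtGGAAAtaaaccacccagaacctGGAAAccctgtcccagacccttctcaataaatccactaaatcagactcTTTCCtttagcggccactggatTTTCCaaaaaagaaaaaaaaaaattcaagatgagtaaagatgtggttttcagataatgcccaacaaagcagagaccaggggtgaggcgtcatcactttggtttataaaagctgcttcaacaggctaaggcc

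The Il4 window holds 5 such matches and the Il13 window 4, with both strands read. Of 32851 promoter windows of the same length, 55.6% hold at least 1, 0.390% hold as many as Il4 and 1.59% as many as Il13. Both windows are poor in G and C, at 37.6% and 43.2%, against 59.6% for Il4ra and 70.8% for Il13ra1. The Il4ra window holds 1 match and the Il13ra1 window none. GATA, the core letters of the GATA factors, occurred once in the Il13 window and not in the Il4 window, and 53.6% of all windows hold it. A match is a description of these letters and not a shown site.

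Gata2, a marker used to name the class, stood at 1492 CPM in basophil-like cells in library 1 and 1475 in library 2, and Gata3, its T cell counterpart, was highest in T cell-like cells, at 204 and 118 CPM. NK cell-like cells were close for Gata3 in library 2, at 100 CPM, with a log2 ratio interval of -0.29 to 0.77. The basophil-like class also held receptors that alarm signals use. Il1rl1, the receptor of interleukin 33, was highest there at 418 and 275 CPM. Crlf2, a chain of the receptor for thymic stromal lymphopoietin, had 178 and 179 CPM. Mature neutrophil-like cells were close for Crlf2, at 137 and 145 CPM, with log2 ratio intervals of -0.16 to 0.92 and -0.08 to 0.69. Jak2, a kinase of cytokine receptors, stood at 860 and 946 CPM in basophil-like cells, at least 2-fold above every other class. Cish, a feedback inhibitor induced through STAT5, stood there at 356 and 370 CPM. T cell-like cells had 278 and 196 CPM of Cish, a log2 ratio of 0.36 [-0.05 to 0.77] in library 1. Il4ra itself was low in basophil-like cells, at 12.3 CPM from 2 UMIs and 17.9 CPM from 6 UMIs. Il13ra1 had none there, which allows up to 18.4 and 8.96 CPM at 3 counts.

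Mast cells share several markers with basophils, so their proteases were read in the same cells. Cma1, Mcpt4, Tpsb2, Tpsab1 and Mrgprb1 together had 0 UMIs in the basophil-like cells of library 1. In library 2 they had 402 UMIs, of which 397 lay in 1 cell. That cell had no UMI of Mcpt8, Il4 or Il13. Without it the log2 ratio of Il13 to the next class in library 2 was 4.05, against 4.03 with it. Of 8 eosinophil markers Epx, Prg3, Il5ra and Ear2 were at 0 in the basophil-like cells of both libraries. Prg2 had 4 and 2 UMIs, and in library 2 Siglecf had 12, Ccr3 2 and Ear1 1, with none in library 1.

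The second source of Il13 was a handful of cells in the T cell-like class. In library 1 all 21 Il13 UMIs came from 2 of 283 cells, 19 of them from 1 cell. In library 2 the 15 UMIs came from 4 of 213 cells, 7 of them from 1. None of these 6 cells had a UMI of the T cell receptor genes Cd3d, Cd3e or Cd3g. All 6 carried Rora, 5 carried Gata3, and 5 carried Il5, the cytokine that sustains eosinophils. Il1rl1 was found in 1 of them in library 1 and in 2 in library 2. They held 4 of 8 type 2 innate lymphoid cell markers each in library 1 and 2 to 4 in library 2. Rora was also found in 44.5% and 34.5% of T cell-like cells with a Cd3 UMI.

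Il5 was highest in the T cell-like class in both libraries, at 168 and 315 CPM, and came from 10 and 12 cells. No Cd3 UMI was found in 10 of these 10 cells in library 1 and in 11 of 12 in library 2, and 6 and 8 of them carried Il1rl1. T cell-like cells without a Cd3 UMI numbered 92 and 48, with a median depth of 1838 and 2640.5 UMIs, against 3314 and 3738 for those with one, so that a missing Cd3 UMI alone does not set a cell apart. Gata3 was higher in the cells without a Cd3 UMI, at 486 CPM [395 to 595] against 131 [106 to 159] in library 1 and 576 CPM [452 to 723] against 38.2 [25.4 to 55.2] in library 2. Cells with a Cd3 UMI held no Il13 in either library. They held Il4 in 1 cell of library 1, with 3 UMIs, and in none of library 2.

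Il4ra was spread over many classes of immune cells and endothelial cells. T cell-like cells were highest, at 205 CPM [177 to 235] in library 1 and 214 CPM [184 to 247] in library 2. Mature B cell-like cells followed at 161 and 153 CPM, and the log2 ratio of the first to the second was 0.34 [0.04 to 0.65] and 0.48 [0.19 to 0.77]. Under the alternative settings the log2 ratio to the next class kept its sign but fell as low as 0.033 in library 1 and 0.12 in library 2. With a finer division of the clusters, the cluster led by H2-Eb1, H2-Ab1 and H2-Aa had 180 CPM [153 to 211] of Il4ra in library 1. In library 2 it had 196 CPM [163 to 235]. Its interval overlapped that of T cell-like cells in both libraries. Macrophage-like cells stood at 154 and 137 CPM and NK cell-like cells at 153 and 108. Mature B cell-like, macrophage-like and NK cell-like cells had overlapping intervals in both libraries, so their order cannot be read. The T cell-like level did not hang on the cells without a Cd3 UMI: those with one had 193 CPM [164 to 227] and 203 CPM [172 to 239]. The intervals of these cells with a Cd3 UMI overlapped those of mature B cell-like cells in both libraries.

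Lower values were found in endothelial cell-like cells (130 and 102 CPM) and plasmacytoid dendritic cell-like cells (125 and 100 CPM). Monocyte-like cells had 121 and 103 CPM and mature neutrophil-like cells 95.7 and 81.6. The NK cell-like intervals overlapped those of endothelial, plasmacytoid dendritic and monocyte-like cells in both libraries, so these classes are not a tier apart. Through their number and depth, monocyte-like cells held most Il4ra UMIs of any class, 18.1% and 18.7%. Stromal cells had less: fibroblast or periodontal ligament cell-like cells had 36.1 and 37.5 CPM osteoblast-like cells 12.6 and 11.1, and pericyte or smooth muscle cell-like cells 18.5 and 12.6 from 7 and 5 UMIs. Osteoclast-like cells, on which interleukin 4 is known to act, had 24.8 CPM from 12 UMIs and 13.9 CPM from 8. Erythroid cell-like cells were lowest, at 7.24 and 3.62 CPM. In free RNA Il4ra stood at 51.8 and 44.2 CPM.

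Il13ra1 was highest in cells of the vessel wall and stroma and low in lymphocytes. Endothelial cell-like cells had 85.6 CPM [73.7 to 98.7] in library 1 and 138 CPM [127 to 150] in library 2. Fibroblast or periodontal ligament cell-like cells, the class of the tissue that anchors the tooth, had 83.8 [76.4 to 91.7] and 82.8 CPM [77.3 to 88.6] and held 32.7% and 35.9% of all Il13ra1 UMIs. Pericyte or smooth muscle cell-like cells had 97.9 CPM [68.9 to 135] from 37 UMIs in library 1 and 52.8 CPM [32.7 to 80.7] from 21 in library 2. In library 1 these 3 classes had overlapping intervals, and the log2 ratio of the pericyte or smooth muscle cell-like to the endothelial level was 0.19 [-0.31 to 0.70]. In library 2 the endothelial level was 1.67 times the next, that of fibroblast or periodontal ligament cell-like cells.

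CXCL12-rich marrow stroma-like cells had 76.4 and 71.3 CPM of Il13ra1, and an unnamed class led by Spp1, Dmp1 and Enpp1 had 79.8 and 68.2. Osteoblast-like cells had 26.3 and 17.3 CPM. T cell-like cells had 0 and 2 Il13ra1 UMIs, NK cell-like cells 0 and 1, and mature B cell-like cells 3 and 5. The lymphocyte classes, high for Il4ra, were thus at or near 0 for Il13ra1. Il13ra2, a decoy receptor for interleukin 13, did not reach 20 UMIs in both libraries; its highest level was in endothelial cell-like cells, at 6.86 CPM from 15 UMIs and 14.0 CPM from 55.

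Among the blood cells of the main clustering Il13ra1 was highest in 1 cluster of mature neutrophil-like cells. The cluster led by Il1b, Asprv1 and Hcar2, with 1459 and 624 cells, had 45.0 CPM [38.0 to 53.0] in library 1 and 62.1 CPM [50.7 to 75.3] in library 2. Its neighbour, with Retnlg and Mmp8 in the lead and 687 and 584 cells, had 4.93 CPM [2.25 to 9.35] and 13.9 CPM [9.40 to 19.9]. Immature neutrophil-like cells had 1.68 and 2.16 CPM and granulocyte-monocyte progenitor-like cells 1.49 and 1.13. Il4ra did not separate the mature clusters in library 1, at 93.5 and 99.6 CPM, and stood at 94.6 and 71.6 CPM in library 2.

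**Figure D3:**
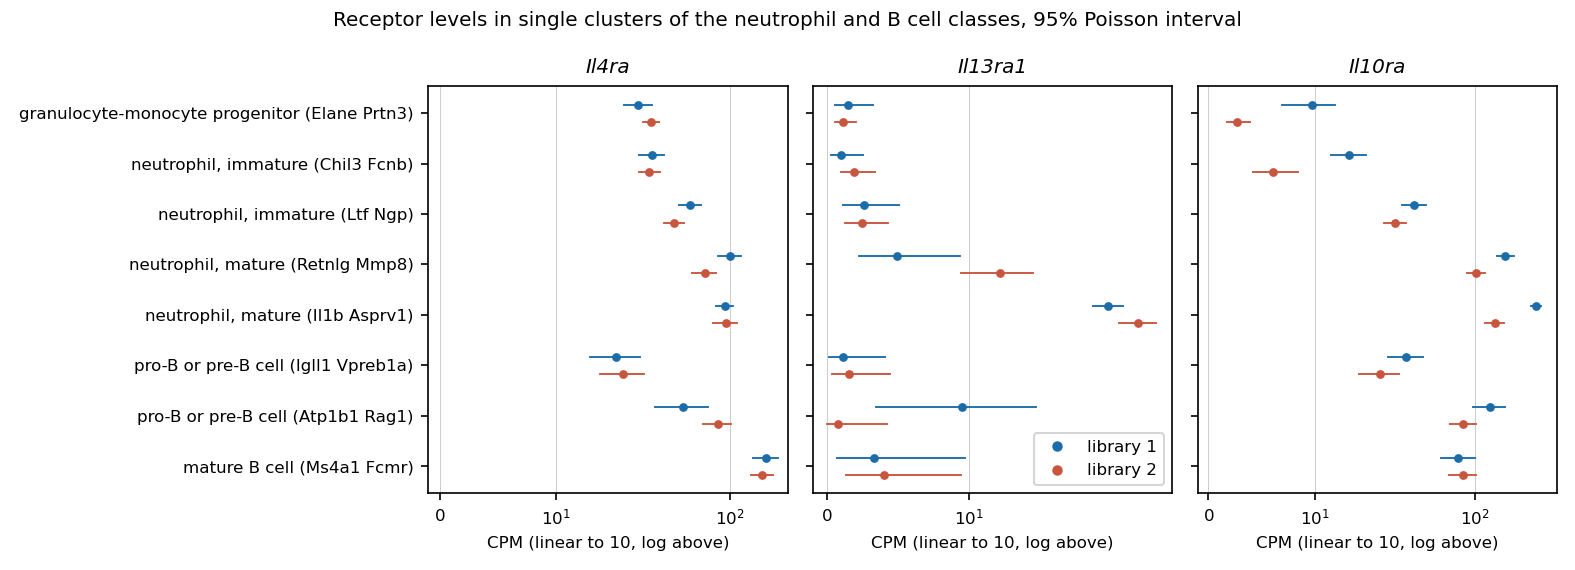
Levels of Il4ra, Il13ra1 and Il10ra (CPM, linear to 10 and logarithmic above) in single clusters of the granulocyte and B cell classes, named by class and 2 leading genes, with 95% Poisson intervals; library 1 is blue and library 2 red. Il13ra1 lies at 45.0 and 62.1 CPM in the Il1b Asprv1 cluster of mature neutrophil-like cells and below 14 CPM in the other clusters. Il10ra is higher in each neutrophil cluster down the list. Within a class the clusters are sorted by Il10ra level in library 1, so that rise follows there from the sorting.

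Pairs of receptor chains were also read in single cells. Il4ra with Il13ra1, the chains of the receptor that both cytokines use, was found together in 20.5% of endothelial cell-like cells in library 1 [16.1 to 25.4] and 20.4% in library 2 [17.2 to 23.8], where the product of the single shares gives 15.1% and 15.4%. The shares were 9.24% and 9.64% in monocyte-like cells, 7.81% and 8.25% in macrophage-like cells and 6.96% and 6.89% in fibroblast or periodontal ligament cell-like cells. T cell-like cells, in which Il13ra1 was at or near 0, had 0% and 0.939%. Median depth was 4996 and 4555.5 UMIs in endothelial, 6873.5 and 6782 in monocyte-like and 2790 and 3228 in T cell-like cells. Thinned to 1000 UMIs, the endothelial shares were 0.680% and 0.846%, and those of monocyte-like cells 1.03% and 0%, which is too few cells to rank the classes.

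Il4ra with Il2rg, the chains of the receptor for interleukin 4 alone, occurred together in 25.4% and 32.4% of T cell-like cells, 30.5% and 22.7% of macrophage-like cells and 25.7% and 23.6% of monocyte-like cells. The share was 1.63% and 0.405% in fibroblast or periodontal ligament cell-like cells and 16.2% and 9.43% in endothelial cell-like cells. Il2rg itself stood at 409 and 373 CPM in T cell-like cells. Thinned shares of the pair were 9.06% and 4.27% in T cell-like and 2.40% and 1.03% in macrophage-like cells.

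**Figure D4:**
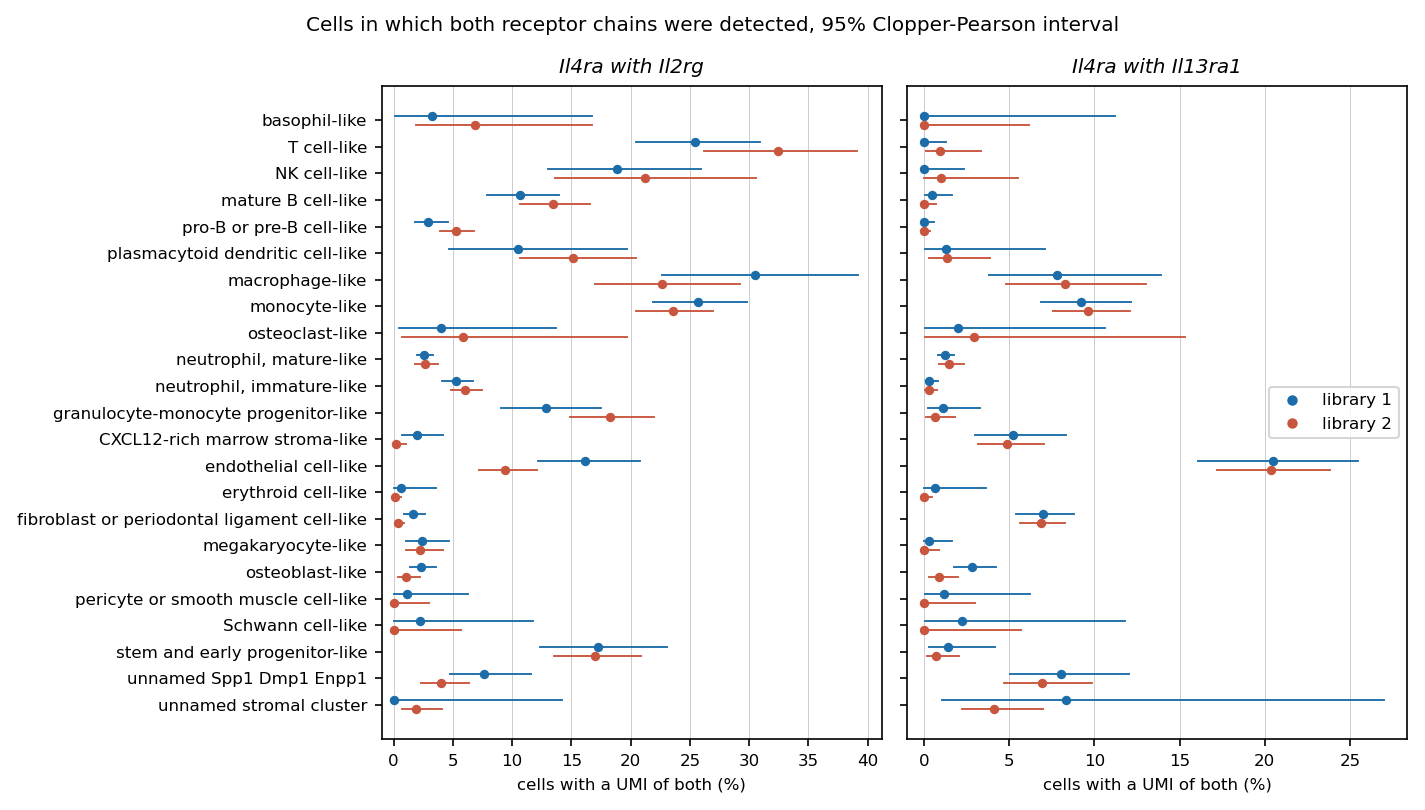
Share of cells in each of 23 classes in which both chains of a receptor had a UMI, for Il4ra with Il2rg and Il4ra with Il13ra1, with 95% Clopper-Pearson intervals and without thinning. Endothelial cell-like cells lie at 20.5% and 20.4% for Il4ra with Il13ra1, and T cell-like cells at 25.4% and 32.4% for Il4ra with Il2rg.

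Il10 lay mainly in macrophage-like cells. These 128 cells in library 1 and 194 in library 2, which carried all 9 macrophage markers, had 1378 CPM [1306 to 1452] and 989 CPM [936 to 1044] of Il10. They held 1388 of 1757 Il10 UMIs in library 1, or 79.0%, and 1307 of 1671 in library 2, or 78.2%. Monocyte-like cells came next at 25.5 and 26.2 CPM, so that the macrophage-like level was 54.1 times as high in library 1 and 37.8 times in library 2. The size of this margin depended on the clustering. At Leiden resolution 1.6, a finer division, a cluster led by H2-Eb1, H2-Ab1 and H2-Aa, genes of antigen presentation, was split from the monocyte-like class and had 34.2 CPM [23.1 to 48.8] of Il10 in library 1 and 201 CPM [167 to 240] in library 2. Its 123 UMIs in library 2 came from 12 of 103 cells, 44 of them from 1 cell. Macrophage-like cells were still highest, with a log2 ratio to the next class of 5.21 in library 1 and 2.29 in library 2, against 5.76 and 5.24 before the split. Il10 was left out of the genes used for clustering but is among the 10 leading genes of the macrophage-like cluster, so its rank there describes the class and tests nothing.

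Within the macrophage-like class Il10 was unevenly spread. A UMI was found in 63.3% of the cells in library 1 [54.3 to 71.6] and 40.7% in library 2 [33.7 to 48.0], at a median depth of 7525.5 and 5668.5 UMIs. Thinned to 1000 UMIs, the shares were 43.2% and 29.9%. In both libraries 38 cells carried 10 or more Il10 UMIs, and the tenth of cells with most held 58.6% and 69.9% of the UMIs of the class. The highest cells carried 119 and 100. In fibroblast or periodontal ligament cell-like cells, with a median depth of 5247 and 5953 UMIs, the unthinned share was 1.41% and 0.473%.

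In the other classes of the main clustering Il10 did not pass 22.7 CPM in library 1 and 13.8 in library 2. Mature neutrophil-like cells had 14.5 and 5.25 CPM, stem and early progenitor-like cells 14.5 and 13.8, and osteoclast-like cells 22.7 CPM from 11 UMIs and 6.95 from 4. T cell-like cells had 4 and 2 Il10 UMIs, mature B cell-like cells 4 and 2, and basophil-like, NK cell-like and Schwann cell-like cells none in either library. In library 2, 1 monocyte-like cell held 22.4% of the Il10 UMIs of its class. Free RNA held Il10 at 37.1 and 15.5 CPM, and free RNA was estimated at 3.57% and 2.94% of the UMIs of monocyte-like cells. For macrophage-like cells the estimate, read from haemoglobin genes, reached the upper limit of 50% set for it in both libraries.

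Macrophage-like cells with an Il10 UMI, 81 and 79, were set beside those without one, 47 and 115, for 9 genes that are known to answer interleukin 10. For 2 of the 9 the level was higher in cells with Il10 in both libraries, with intervals that did not overlap, which held for 2.72% of the 5370 genes with at least 20 UMIs in macrophage-like cells of each library. None of the 9 was lower in both libraries in this way, as 0.987% of those genes were. Il1rn, the antagonist of the interleukin 1 receptor, stood at 3359 CPM against 1930 in library 1 and 2021 against 860 in library 2. Socs3, a feedback inhibitor of STAT3 signalling, stood at 624 against 342 and at 486 against 218. Cd163, the scavenger receptor for haemoglobin, was lower in cells with Il10 in library 1, at 22.8 CPM, with an upper bound of 36.9, against 92.0, with a lower bound of 61.2, and its intervals overlapped in library 2, at 62.0 [44.1 to 84.7] against 98.2 [76.2 to 124]. Cells with an Il10 UMI were deeper, with a median of 8591 against 5293 UMIs in library 1 and 7100 against 4599 in library 2, and the part of depth or of cell states in these values was not tested.

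Il10ra was a gene of blood cells. Plasmacytoid dendritic cell-like cells were highest, at 283 CPM [232 to 340] in library 1 and 165 CPM [143 to 190] in library 2. Mature neutrophil-like cells followed in library 1 at 209 CPM and had 115 in library 2, where macrophage-like cells were second at 130 CPM, after 153 in library 1. Monocyte-like cells had 156 and 100 CPM and NK cell-like cells 166 and 85.3. The log2 ratio of plasmacytoid dendritic cell-like cells to the next class was 0.43 [0.15 to 0.72] and 0.34 [0.05 to 0.64], and it changed sign under 5 of the alternative settings. At resolution 1.6 the cluster led by H2-Eb1, H2-Ab1 and H2-Aa, with 129 and 103 cells, had 323 CPM [286 to 363] and 175 CPM [144 to 212].

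Il10ra stood at 79.0 and 36.0 CPM in T cell-like cells, 78.4 and 84.0 in mature B cell-like cells and 49.1 and 68.7 in basophil-like cells. Stromal, osteoblast-like and endothelial cell-like cells had no more than 7.97 CPM in library 1 and 2.16 in library 2. In free RNA Il10ra stood at 60.2 and 27.1 CPM.

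Il10ra was higher in each later granulocyte class, from progenitor to immature to mature neutrophil-like cells. Within a class the clusters are listed by their Il10ra level in library 1, so their order there was fixed by the sorting. Granulocyte-monocyte progenitor-like cells had 9.67 CPM [6.88 to 13.2] and 2.68 CPM [1.75 to 3.93]. The immature neutrophil-like cluster led by Chil3 and Fcnb had 16.3 and 6.04 CPM, and that led by Ltf and Ngp 41.6 and 31.8. The mature cluster led by Retnlg and Mmp8 had 154 and 101 CPM, and that led by Il1b and Asprv1 had 241 and 133. Neighbours in this order had intervals apart, except that the progenitors and the first immature cluster overlapped in library 1 and the mature clusters met at 116 CPM in library 2.

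Il4ra showed a shallower order in the same clusters, at 29.8, 35.5, 59.0, 99.6 and 93.5 CPM in library 1 and at 35.4, 34.5, 47.8, 71.6 and 94.6 in library 2. In B cells both receptors were lower in the earlier cluster. Il4ra had 22.1 and 24.3 CPM in the pro-B or pre-B cluster led by Igll1 and Vpreb1a, 53.7 and 84.9 in the cluster led by Atp1b1 and Rag1, and 161 and 153 in mature B cell-like cells. Il10ra had 36.9 and 25.3 CPM, then 123 and 84.2, then 78.4 and 84.0.

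Il10rb, the partner chain of Il10ra, was sparsely captured, and was highest in plasmacytoid dendritic cell-like cells at 15.3 CPM from 6 UMIs and 17.7 CPM from 21. Il10ra and Il10rb occurred together in 3.95% and 4.44% of these cells and in 2.41% and 4.75% of monocyte-like cells. Il10 and Il10ra occurred together in 32.0% and 15.5% of macrophage-like cells, where the product of their shares gives 34.1% and 18.3%. The counts carry no length correction, so levels are compared here between classes and not between genes.

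Other genes of these pathways were read from lists, and a list is described here by its counts. Of 11 measured receptor chains and signal proteins 7 shared their highest class between libraries, and 1, Jak2, was at least 2-fold above all others. Over all measured genes these shares were 53.9% and 11.7%. The kinase genes Jak1 and Jak2 and the inhibitor Cish were highest in basophil-like cells. For Jak1 NK cell-like cells were close, at 1004 CPM against 1026 in library 1 and 944 against 1122 in library 2. Jak3, Tyk2 and Stat3 were highest in NK cell-like cells, and Il10rb in plasmacytoid dendritic cell-like cells. For Jak3 the log2 ratio interval to the next class was -0.68 to 1.48 in library 2, from 11 UMIs. For Tyk2 it was -0.57 to 1.31 and -0.07 to 1.42, and for Il10rb -0.99 to 1.42 and -0.43 to 1.02. Among these genes the order can be read in both libraries only for Stat3. Stat6, through which interleukin 4 and interleukin 13 signal, had no shared highest class; mature neutrophil-like cells had 192 and 125 CPM and mature B cell-like cells 179 and 179. The lower over both libraries of the ratio to the next class had a median of 1.30 over the list's genes with a shared class, as over all 7444 such genes.

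Genes that interleukin 4 and interleukin 13 are known to induce in macrophages were highest in many different classes. Of 12 genes 8 were measured, 7 had a shared highest class and 4 passed the 2-fold margin. The shares over all measured genes were 53.9% and 11.7%. Only Mrc1 and Ccl22 were highest in macrophage-like cells. Mrc1, the mannose receptor and a marker used for naming, had 478 and 596 CPM there, and the chemokine Ccl22 had 68.5 and 17.4. The chitinase-like Chil3, also a naming marker, was highest in immature neutrophil-like cells, Cdh1, the adhesion molecule E-cadherin, in basophil-like cells at 295 and 131 CPM, and the oxidase gene Il4i1 in mature B cell-like cells at 141 and 124 CPM. The median lower ratio of the shared genes was 2.36. Arg1, the arginase that marks such macrophages, did not reach 20 UMIs in any class, nor did Ccl17, Ccl24 and Chil4 in both libraries.

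Of the 9 genes known to answer interleukin 10, which include Il4ra, 8 had a shared highest class and 1 passed the 2-fold margin. Among all measured genes 53.9% and 11.7% did so. Il1rn, Etv3 and Cd163 were highest in macrophage-like cells, the class of Il10 itself. Il1rn had 2927 and 1413 CPM, Etv3, a transcriptional repressor, 400.03 and 365.32, and Cd163, which passed the margin, 43.7 and 80.9. The median lower ratio was 1.58. Bcl3 was highest in plasmacytoid dendritic cell-like cells, Nfil3 in NK cell-like cells, Sbno2 in endothelial cell-like cells and Ddit4 in pericyte or smooth muscle cell-like cells. Plasmacytoid dendritic cell-like cells had 351 CPM of Bcl3 in library 1, against 323 in NK cell-like cells. In library 2 they had 243, against 237 in monocyte-like cells, so the order for Bcl3 cannot be read.

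Among 14 other type 2 cytokines, alarm signals and receptors 6 were measured, 4 had a shared highest class and 2 passed the 2-fold margin. Over all measured genes the shares were 53.9% and 11.7%. Il5 and Areg, which encodes a growth factor of tissue repair, were highest in T cell-like cells, and Il1rl1 and Crlf2 in basophil-like cells. For Areg NK cell-like cells were close in library 1, at 71.0 CPM against 75.9, with a log2 ratio interval of -0.50 to 0.69. Il33, the alarm signal read by Il1rl1, was highest in macrophage-like cells in library 1, at 157 CPM, and in pericyte or smooth muscle cell-like cells in library 2, at 37.7 CPM. The median lower ratio of the shared genes was 1.66. Il3, Il9 and Il31 did not reach 5 UMIs in any class. Of 9 other genes of the interleukin 10 family 2 were measured, Ifnlr1, the receptor of interferon lambda, highest in mature neutrophil-like cells at 91.3 and 46.2 CPM, and Il20ra, highest in an unnamed stromal cluster at 6.29 CPM from 1 UMI and 8.49 CPM from 19; their median lower ratio was 1.10.

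Of 11 transcription factors known to control Il4, Il13 or Il10, 7 had a shared highest class, each of them in a different class. The 2-fold margin was passed by 2, and the median lower ratio was 1.54. The shares over all measured genes were 53.9% and 11.7%. Gata2 was highest in basophil-like cells and Gata3 in T cell-like cells, with NK cell-like cells close for Gata3 in library 2. Nfatc1, an NFAT factor that also drives osteoclast formation, was highest in osteoclast-like cells, at 870 and 526 CPM, where Il4 and Il13 had no UMI. Irf4 was highest in mature B cell-like cells at 748 and 759 CPM. Maf, a factor known to drive Il10 in macrophages, had no shared highest class, and within macrophage-like cells it stood at 152 CPM in cells with an Il10 UMI and 138 in those without in library 1, and at 153 and 170 in library 2.

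The genes most like Il4, Il13, Il10, Il4ra and Il10ra were found by the lower over both libraries of Pearson r of log2(CPM + 10) across the 23 classes, which share a library's depth and free RNA. For Il4 these were Cd200r3, Cyp11a1, Mcpt8, Fcer1a and Ms4a2, with r of at least 0.965, and for Il13 Cd200r3, Cyp11a1, Fcer1a, Mcpt8 and Prss34, with r of at least 0.865. Most of these are basophil markers used for naming. For Il10 they were Slamf8, Gm13391, Gm56557, Mrc1 and Ccl12, with r of at least 0.945. Il4ra and Il10ra had looser likenesses: B2m (0.83), Shisa5, Gbp9, Ric1 and Ifnar1 for Il4ra, and Trim30d (0.89), Dennd4b, Trim30a, Lyn and Gpr132 for Il10ra. Between members, Il4ra and Il10ra had r of 0.61 and 0.66, Il13ra1 and Il10ra -0.42 and -0.39, and Il4ra and Il13ra1 0.02 and 0.02.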

How the data were processed

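The authors deposited raw UMI counts per gene and barcode, unfiltered and not normalized, for 2 libraries from 12 mice, per the file headers and the labels. FastQC 0.11.9 and the builds mm10 and GRCh38 appear in the submitters' processing notes, with no role stated; which aligner and annotation were used is not given in the sources used here. Features without a gene symbol were left out (0.636% and 0.459% of UMIs). Overlapping and antisense genes may share reads, since strand use is not stated.

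A barcode was a cell if it held no fewer UMIs than the inflection of the ranked barcode totals (801 and 938, both above a floor of 500), with at least 200 genes and at most 20% mitochondrial UMIs. Scrublet's automatic threshold marked 0 and 2 cells and had not worked, so the top 5% by score were left out (495 and 623); doublets may remain. Both libraries were clustered together with scanpy 1.11.5 (2000 variable genes without the members and without pathway genes that are not markers, 30 components, 15 neighbours, Leiden resolution 1.0). A cluster took a marker list's name if at least 3 of its markers, and 50% of them, were 3-fold or more above all other cells and the list led among its 10 leading genes; the limits of this rule were set after clusters had been seen. The members and lists were chosen with earlier results of these data known.

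UMIs were summed per class and library as CPM. Levels under 0.5 UMIs were set to it for ratios, and 0 counts allow up to 3 counts. The 6 members, the genes of 6 pathway lists and 5 genes most like each member were the ones to be named (those most like Il13ra1 are not reported here); genes outside them (such as Cd3d, Cd3e, Cd3g, Rora, Cma1 and Epx) are cell type markers. Cell-level splits, and the reading of all genes beside one of them, were chosen after values were seen. Free RNA came from barcodes with 10 to 100 UMIs, its share from haemoglobin genes, held to at most 50%. Macrophage-like cells reached that limit in both libraries and Schwann cell-like cells in library 2. The search for the highest class was tested on simulated counts. Promoter sequences are from RefSeq (GRCm38.p6); 4 of 6 members matched. UMI totals were 77546284 and 116742643.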

Additional observations from a re-analysis of the deposited data

How the results depend on the processing

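For 5 of 6 genes the libraries shared 1 highest class, and over 11 alternatives fixed with the design and 2 chosen after seeing the data this count lay between 3 and 5. It was 3 of 5 measured genes with each library clustered and named on its own, 3 of 4 with classes of at least 50 cells, which leaves out the basophil-like class, and 4 of 4 with cells thinned to 1000 UMIs. No basophil-like class arose at a minimum of 500 UMIs or at Leiden resolution 0.6, and no T cell-like class at that resolution. With each library on its own, a T cell-like class of 285 cells arose in library 1 but none in library 2, so it was not ranked. Those ratios therefore have no value under these settings. The log2 ratio of a gene's highest class to the next was recomputed 124 times; 83 stayed within the counting interval, 31 moved beyond it and 10 changed sign. Of those that moved 19 were for Il10, which stayed within it 3 times: its ratio ranged from 4.71 to 6.47 in library 1 and from 2.29, at Leiden resolution 1.6, to 5.96 in library 2. For Il4ra 4 ratios moved and none changed sign. The Il4ra ratio ranged from 0.033 to 0.66 in library 1 and from 0.12 to 0.75 in library 2. The changes of sign were for Il13ra1 and Il10ra. For Il13ra1, the pericyte or smooth muscle cell-like class of library 1 fell behind at a minimum of 2000 UMIs (-0.25), at resolution 1.6 (-0.11) and with cells thinned to 1000 UMIs (-0.63). For Il10ra, plasmacytoid dendritic cell-like cells fell behind mature neutrophil-like cells in library 1 clustered on its own (-1.20), behind the H2-Eb1 H2-Ab1 H2-Aa cluster at resolution 1.6 (-0.16 and -0.084), and behind macrophage-like cells with the mean over cells (-0.083 in library 2), with thinned cells (-0.053 and -0.13) and with free RNA subtracted (-0.10 in library 2). The cause was not tested. Leaving out T cell-like cells without a Cd3 UMI, chosen after seeing the data, gave a count of 4 of 5, because Il13 then had too few UMIs in library 1, and raised its log2 ratio from 2.17 to 4.80 in library 1 and from 4.03 to 6.57 in library 2. Il4 and Il13 rest on only 49 and 43 UMIs in library 1. No paired analysis was possible because no library is tied to a group.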
